A study of Mus musculus with 16 samples.

Results

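The DP to CD4 SP transition of mouse thymocytes was followed as a change of chromatin accessibility between 2 lists of ATAC-seq peaks. ATAC-seq cuts accessible DNA with a transposase, and a peak is a stretch of the genome where cuts pile up above the local background. Of 107110 DP peaks, 27018 shared no base with any SP4 peak and are called closed here. Of 115074 SP4 peaks, 35198 shared no base with any DP peak and are called gained. A further 83714 pairs of a DP and an SP4 peak shared at least 1 bp and are called kept. All these regions were chosen from the peak calls themselves, out of 476734 peaks over the 4 stages of the series, so their numbers and heights are a description and carry no test. Closed and gained mean only that no peak was called at the other stage.

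DP cells were lineage-negative CD4+CD8+ thymocytes, and SP4 cells were lineage-negative CD4+CD8-CD3+ thymocytes, with no marker in the sort to set regulatory T cells apart. Both were sorted by flow cytometry from the same 4 wild type C57BL/6J mice, 9 weeks old, which gave 8 of the 16 libraries of the series. The other 8 came from CD4-CD8- double-negative (DN) and CD8 single-positive (SP8) thymocytes of those mice, and their lists had no part in choosing the regions. Reads of the 4 mice were pooled before peaks were called, so there is no spread between mice behind any value given here. Intervals are 95% Wilson intervals on counts of peaks and cover counting error only, and the number of autosomes, of 19, that show a direction is given as a measure of how evenly it holds along the genome. No peak was listed on chromosome X or Y, and read numbers were not analysed here, the authors having down-sampled libraries to their median depth before pooling.

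A DP thymocyte has rearranged the beta chain gene of the T cell receptor and rearranges the alpha chain gene at this stage. With a complete receptor it waits for a signal from self peptide on MHC molecules. Cells whose receptor binds MHC class II move to the CD4 lineage under the factor ThPOK, encoded by Zbtb7b, shut down receptor gene rearrangement and acquire the receptors that let them live in the periphery and leave the thymus. E proteins such as HEB (Tcf12) and E2A (Tcf3), which bind E-box sequences, are known to sustain the DP stage. TCF-1 (Tcf7), LEF-1, GATA-3 and Runx proteins act on both sides of the transition, and NR4A, EGR, NFAT and NF-kB proteins are known to act downstream of receptor signals.

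The sequences at the centres of the most significant closed and gained peaks are shown first because they differed in the motif that set the classes apart most widely among frequent motifs, the E-box. An E-box was counted as CAGCTG or CAGGTG on either strand. In the 100 bp around the summit, 9 of the 10 closed peaks with the highest −log10 q held one, and none of the 10 such gained peaks did. Each sequence below is the plus strand of mm10, read from the GRCm38 reference, in lower case, with every match to any of the 21 motifs searched in capitals. Of the 6 closed windows shown, the 1st holds a RUNX match, TGTGGT, and the other 5 hold an E-box each.
Gtf2h4 exon, closed, chr17:35672014-35672113: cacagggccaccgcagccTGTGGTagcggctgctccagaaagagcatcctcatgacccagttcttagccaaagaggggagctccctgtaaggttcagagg
Atp10a intron, closed, chr7:58755238-58755337: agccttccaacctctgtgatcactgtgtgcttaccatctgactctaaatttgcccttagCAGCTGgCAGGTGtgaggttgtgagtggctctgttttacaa
near Nkx2-4, closed, chr2:147127552-147127651: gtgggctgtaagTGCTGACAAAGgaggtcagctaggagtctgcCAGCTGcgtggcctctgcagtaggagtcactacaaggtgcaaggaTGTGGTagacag
near Itpr1, closed, chr6:108207049-108207148: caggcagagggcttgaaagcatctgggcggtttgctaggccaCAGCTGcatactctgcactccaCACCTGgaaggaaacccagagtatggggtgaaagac
near Evi5l, closed, chr8:4162931-4163030: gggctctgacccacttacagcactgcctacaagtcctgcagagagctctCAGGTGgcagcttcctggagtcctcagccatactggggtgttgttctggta
near Fkbp1a, closed, chr2:151528176-151528275: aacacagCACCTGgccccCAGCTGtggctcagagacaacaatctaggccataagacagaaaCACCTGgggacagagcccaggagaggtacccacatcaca

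The Atp10a, Itpr1 and Fkbp1a windows hold more than 1 E-box. The 6 leading gained windows, from the same reference and strand, hold no E-box. Those in Elavl1 and Drosha and near Tnpo1 matched none of the 21 motifs, which was so for 6 of the 10 gained peaks with the highest −log10 q. The Fanci window holds an ETS match, the window near Mgll has AP-1, PBX and NFAT matches, the first 2 of them overlapping, and the window near Btla has TCF7/LEF1, RUNX, SOX and KLF matches.
Elavl1 intron, gained, chr8:4305952-4306051: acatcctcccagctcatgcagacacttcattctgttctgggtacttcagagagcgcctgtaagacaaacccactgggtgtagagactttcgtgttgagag
Drosha intron, gained, chr15:12895515-12895614: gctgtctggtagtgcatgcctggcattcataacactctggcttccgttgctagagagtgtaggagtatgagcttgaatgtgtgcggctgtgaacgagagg
near Tnpo1, gained, chr13:98937232-98937331: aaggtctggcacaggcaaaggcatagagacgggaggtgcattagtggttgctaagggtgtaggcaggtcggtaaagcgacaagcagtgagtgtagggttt
Fanci exon, gained, chr7:79420049-79420148: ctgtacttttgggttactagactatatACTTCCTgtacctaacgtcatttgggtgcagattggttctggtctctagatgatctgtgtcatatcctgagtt
near Mgll, gained, chr6:88694507-88694606: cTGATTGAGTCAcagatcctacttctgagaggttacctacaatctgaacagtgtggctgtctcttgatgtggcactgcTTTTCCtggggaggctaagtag
near Btla, gained, chr16:45261497-45261596: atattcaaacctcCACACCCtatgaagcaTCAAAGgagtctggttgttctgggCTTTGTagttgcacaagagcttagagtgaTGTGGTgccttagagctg

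Among kept regions, the pair that lost height near Trub1 holds 2 E-boxes and the pair that gained height within Chl1 holds TCF7/LEF1 matches (TCAAAG on this strand) and no E-box. A further 4 windows were chosen after their values were seen, as the highest members with a given match. They carry a ROR match, TAGGTCA, in a closed peak near Pmvk, an NR4A match, AAAGGTCA read on the minus strand, in a gained peak near Rasa2, GATA matches in a gained peak within Mctp1, and an NF-kB match in a gained peak near Trib2.
near Trub1, lower at SP4, chr19:57431668-57431767: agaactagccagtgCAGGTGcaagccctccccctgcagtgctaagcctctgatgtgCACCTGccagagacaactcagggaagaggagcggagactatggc
Chl1 exon, higher at SP4, chr6:103564954-103565053: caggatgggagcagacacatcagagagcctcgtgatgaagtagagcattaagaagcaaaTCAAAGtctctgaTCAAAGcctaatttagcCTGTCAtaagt
near Pmvk, closed, chr3:89452196-89452295: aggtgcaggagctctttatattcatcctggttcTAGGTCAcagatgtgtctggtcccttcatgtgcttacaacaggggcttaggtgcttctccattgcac
near Rasa2, gained, chr9:96660614-96660713: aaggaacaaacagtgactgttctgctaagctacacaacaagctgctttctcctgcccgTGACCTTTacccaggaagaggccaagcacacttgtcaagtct
Mctp1 intron, gained, chr13:76858154-76858253: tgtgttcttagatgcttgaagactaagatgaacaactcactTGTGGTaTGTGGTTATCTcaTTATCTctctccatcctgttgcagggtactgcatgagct
near Trib2, gained, chr12:15971908-15972007: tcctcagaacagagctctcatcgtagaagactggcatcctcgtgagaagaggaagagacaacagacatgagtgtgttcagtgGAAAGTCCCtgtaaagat

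Closed peaks made up 25.2% of the DP list and gained peaks 30.6% of the SP4 list. The closed share ran from 23.9% on chromosome 7 to 27.5% on chromosome 12, and the gained share from 26.9% on chromosome 11 to 33.8% on chromosome 3, with the gained share above the closed share on all 19 autosomes. The SP4 list was the longer of the pair. When both lists were held to the same number of peaks by q-value, 29345 DP peaks were closed and 29872 SP4 peaks gained. As most kept peaks met a single peak of the other list, equal lengths fix nearly equal counts in advance. These counts therefore do not test where the excess of gained over closed regions came from. In sorted cells taken in bulk, a region accessible in fewer cells and a region less accessible in every cell cannot be told apart.

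Both classes were made up of small, low peaks. The median closed peak was 142 bp wide and 3.77-fold enriched over the local background, against 265 bp and 6.82-fold for the DP peaks that were kept. The median gained peak was 149 bp wide and 4.27-fold enriched, against 286 bp and 7.66-fold for kept SP4 peaks. Height is given below as the percentile of this fold enrichment within the stage's own list, so that both lists share a scale. The median percentile was 24.4 for closed and 29.5 for gained regions, against 60.7 and 61.7 for their kept counterparts. From the lowest to the highest decile of height, the closed share of DP peaks fell from 52.9% to 1.15%, and the gained share of SP4 peaks from 52.5% to 3.37%. Tall members were therefore few: 651 closed peaks (2.41%) and 1785 gained peaks (5.07%) stood above the 75th percentile of their list, and 123 and 388 above the 90th.

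The boundary of the rule ran through low peaks. The 49 closed peaks with an SP4 peak less than 10 bp away had a median percentile of 14.8, and the 43 such gained peaks 15.7. The 84 pairs that shared 1 to 10 bp had median percentiles of 28.1 at DP and 29.5 at SP4. The median closed peak lay 2013 bp from the nearest SP4 peak, with 13.9% within 200 bp, and the median gained peak 3100 bp from the nearest DP peak, with 11.3% within 200 bp.

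**Figure D1:**
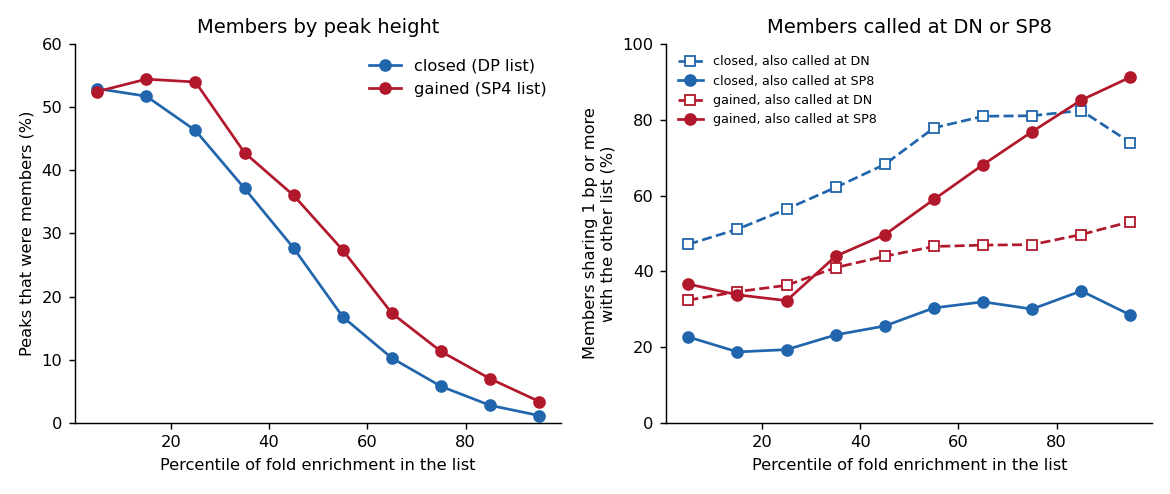
Left, share of peaks (%) that were closed (of DP peaks) or gained (of SP4 peaks) in each decile of fold enrichment within the list. Right, share (%) of those members that shared at least 1 bp with a DN or an SP8 peak, by the same deciles. Closed and gained shares fell from 52.9% and 52.5% in the lowest decile to 1.15% and 3.37% in the highest, while the share of gained regions called at SP8 rose from 36.6% to 91.2%.

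The lists of the other stages, which the rule did not use, placed the classes differently. Of the closed regions, 58.9% (58.3 to 59.5) shared a base with a DN peak and 22.9% (22.4 to 23.4) with an SP8 peak. Of the gained regions, 39.3% were called at DN and 44.9% at SP8. In the whole lists, 83.6% of DP peaks and 76.0% of SP4 peaks met a DN peak, and 72.3% and 75.3% met an SP8 peak, so both classes were below their lists at each other stage. The most frequent pattern of closed regions was DN without SP8, 41.5%, followed by neither, 35.6%, both, 17.3%, and SP8 without DN, 5.53%. Gained regions were most often at neither stage, 39.0%, then at both, 23.2%, at SP8 alone, 21.7%, and at DN alone, 16.1%. Thus 16.1% of the gained regions were called at DN and SP4 and at neither DP nor SP8.

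Height widened this difference. In the highest decile, 91.2% of gained regions were called at SP8, against 36.6% in the lowest, and 53.1% against 32.4% at DN. For closed regions the DN share rose from 47.1% in the lowest decile to 82.4% between the 80th and 90th percentiles and was 74.0% above, while the SP8 share was 22.7% in the lowest and 28.5% in the highest decile. Kept peaks of the highest decile were called at SP8 in 99.2% of cases at DP and 99.9% at SP4, so tall closed regions remained apart from kept peaks of their own height.

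Promoters were rare among both classes. A peak was counted as a promoter when it touched the 200 bp upstream of a transcription start site (TSS). By this measure 7.31% (7.01 to 7.63) of closed and 3.91% (3.71 to 4.12) of gained regions were promoters, against 20.8% and 21.1% of the kept DP and SP4 peaks. Introns held 49.8% of closed and 54.99% of gained regions, intergenic DNA 27.1% and 29.2%, and exons 15.8% and 11.9%. In the highest decile, 3.25% of closed and 3.35% of gained regions were promoters, against 37.8% and 34.0% of kept peaks. The median distance to the nearest TSS was 5336 bp for closed and 6800 bp for gained regions, and 3681 bp and 3527 bp for kept peaks.

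Within kept pairs, 10952 (13.1%) stood at least 25 percentile points higher at SP4 and 10225 (12.2%) at least 25 points lower, and the median change over all pairs was 0.28 points with quartiles of −10.9 and 12.3. The threshold cut a dense part of the distribution, with 543 pairs just inside and 605 just outside it on the higher side and 506 and 534 on the lower. Higher pairs went from a median percentile of 25.7 to 71.8, and lower pairs from 69.6 to 22.4. Width moved with height: 95.1% of higher pairs were wider at SP4, by a median of 177 bp over the class, and lower pairs were narrower by a median of 160 bp. At SP8, 92.5% of higher pairs were called, with a median percentile of 64.4, and 78.2% of lower pairs, with a median of 45.1. At DN the 2 classes were closer, with 88.5% of higher pairs called at a median of 63.3 and 91.0% of lower pairs at a median of 66.5. Over all kept pairs, 89.15% were called at SP8, at a median of 65.9, and 92.4% at DN, at a median of 71.6. Higher pairs were thus near all pairs at SP8, and lower pairs were below them there. In 69599 pairs each peak met only 1 peak of the other list, and of these single pairs 7724 were higher and 6954 lower. The changes were smaller in them. Single higher pairs went from a median percentile of 26.7 to 67.7 and were wider at SP4 by a median of 103 bp. Single lower pairs went from 65.5 to 23.9 and were narrower by a median of 87 bp.

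**Figure D2:**
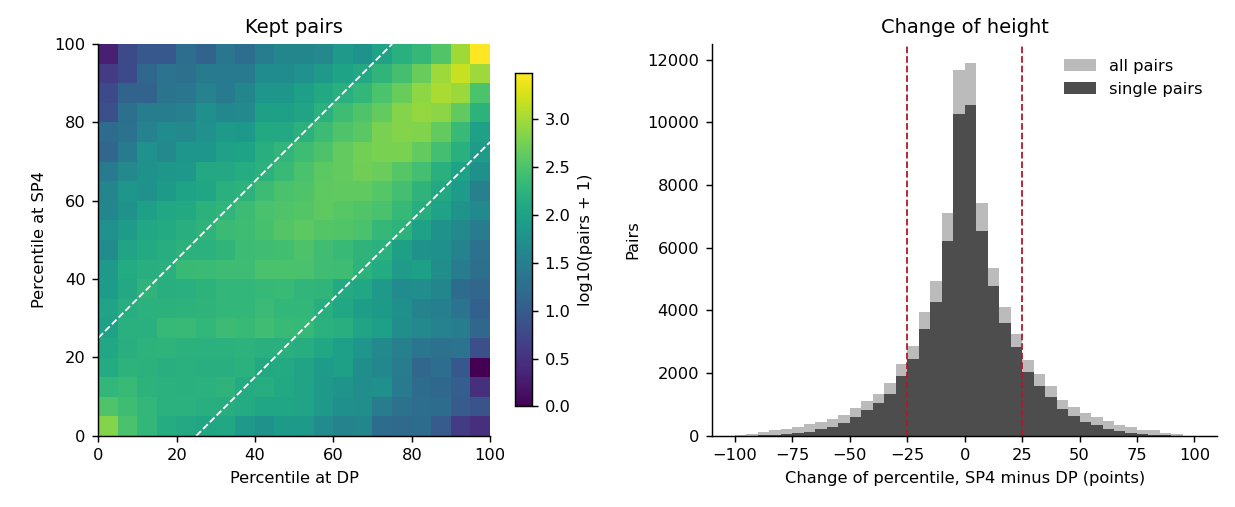
Left, number of kept pairs, as log10 of pairs plus 1, by the percentile of fold enrichment at DP (x axis) and at SP4 (y axis). Right, number of pairs by change of percentile, SP4 minus DP, in points. The distribution centred on a median of 0.28 points, with 10952 pairs at or above 25 points and 10225 at or below −25 points.

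The largest changes of percentile over all kept pairs joined a small fragment to a tall peak beside it, so pairs of 1 peak at each stage are described instead, a choice made after the values were seen. Their largest changes came close to the whole range of the list. Among the regions with the greatest rise were those within Chl1, from 4.81 to 96.6, and within Aph1c, from 8.17 to 99.2. All 10 single pairs with the greatest rise were also called at SP8 and at DN, as were 88.0% and 91.8% of all single pairs. The greatest fall was at chr1:128772061-128772509, 179985 bp from the TSS of Cxcr4, the chemokine receptor that holds DP cells in the cortex, where the percentile went from 95.6 at DP to 0.642 at SP4 with no SP8 peak. A region at chr16:24122148-24122481, 133472 bp from the TSS of Bcl6, a transcriptional repressor, went from 97.3 to 7.33. An E-box was present in 8 of the 10 single pairs with the greatest fall and in none of the 10 with the greatest rise. Nearest genes are given as landmarks, and no contact between these regions and the genes was measured.

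E-boxes differed most between closed and gained regions among the motifs found in at least 5% of either class. They stood within 50 bp of the summit in 35.2% of closed and 12.4% of gained regions, a log2 ratio of gained to closed of −1.50 with the same direction on 19 of 19 autosomes. Kept peaks lay between, at 22.6% for DP and 20.4% for SP4, and the whole lists held it in 25.8% and 17.98% of peaks. Single pairs that lost height held an E-box in 43.6% of cases and those that gained height in 12.1%. At 1000 bp from the summit the shares were 12.3% for closed and 10.4% for gained regions, so gained summits were close to their surroundings and closed summits were not. Both forms of the sequence took part, with CAGCTG in 16.1% of closed and 5.45% of gained regions and CAGGTG in 22.5% and 7.34%. At least 2 E-boxes were found in 6.40% of closed and 0.835% of gained regions.

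The taller the closed peak, the more often it held an E-box. The share was 29.98% below the 25th percentile, 35.2% from the 25th to the 50th, 50.4% from the 50th to the 75th and 70.5% (66.9 to 73.9) above, in 651 peaks. Kept DP peaks went from 16.9% to 27.5% over the same ranges. Gained peaks went the other way, from 13.1% below the 25th percentile to 9.08% above the 75th, while kept SP4 peaks fell from 23.3% to 18.1%. The E-box share also followed the other stages: 44.9% of the 11225 closed regions called at DN and not at SP8 held one, against 29.0% of those called at neither and 19.2% of those called at SP8 and not DN.

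**Figure D3:**
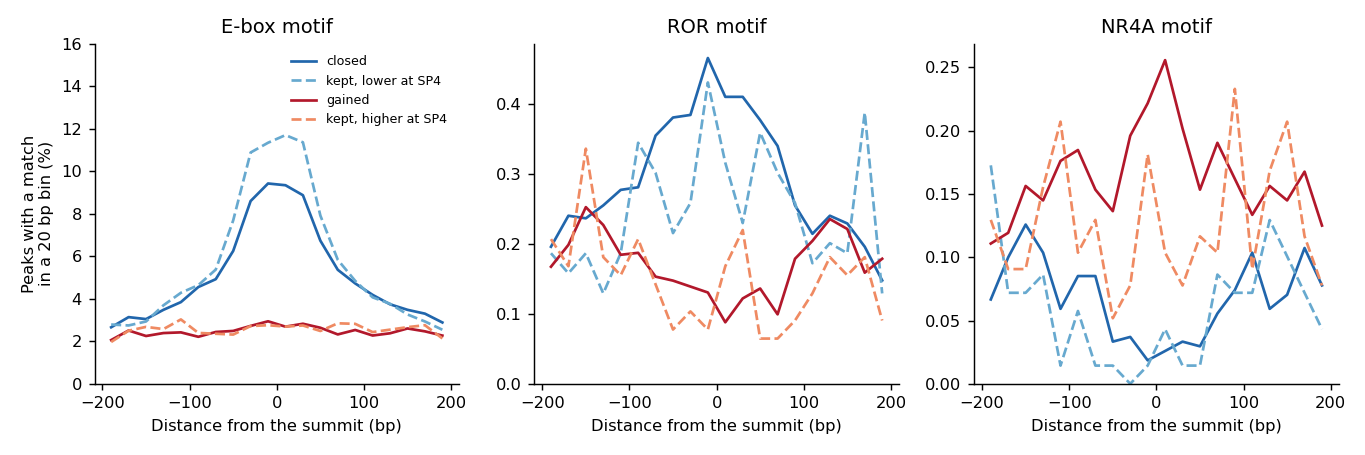
Share of peaks (%) with a motif match in each 20 bp bin, by distance from the summit (bp), for closed and gained regions and for single pairs lower or higher at SP4. In the E-box panel closed regions reached 9.35% in the bin from 0 to 20 bp, against 2.66% at −200 bp, and gained regions 2.69% against 2.06%.

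Of the 21 motifs, 12 were more frequent in gained and 4 in closed regions with intervals apart, and for 5 the intervals overlapped. Beside the E-box, the closed side held ROR, TAGGTCA, at 1.95% of closed and 0.608% of gained regions (log2 ratio −1.68, 19 of 19 autosomes), EGR, GCGTGGG, at 1.06% and 0.710%, and IKZF, TGGGAA, at 6.34% and 5.50%. At 1000 bp from closed summits they were at 0.968%, 0.420% and 10.1%. Closed summits therefore lay above their surroundings in ROR and EGR and below them in IKZF. ROR rose with the height of closed peaks from 1.48% to 6.14%, while kept DP peaks were at 0.776% and 0.861% at the ends of that range. It was most frequent in closed regions called at neither DN nor SP8, 3.54%, and was 0.909% in those called at DN and not SP8.

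On the gained side, NR4A, AAAGGTCA, was found in 0.133% of closed and 0.938% of gained regions (log2 ratio 2.81, 19 of 19 autosomes). NF-kB, searched as GGGACTTTC, GGGAATTTC or GGAAATTCC, was found in 0.0703% and 0.284% (2.01, 18 of 19). ROR and NR4A share the letters AGGTCA and differ in what precedes them, and they moved in opposite directions. At 1000 bp from the summit NR4A was at 0.651% and 0.539% and NF-kB at 0.223% and 0.239%. Closed summits thus lay below their surroundings in both. Over all gained regions, summits lay above theirs in NR4A and near theirs in NF-kB. By height, NF-kB was at 0.258% of gained peaks below the 25th percentile and 0.728% of the 1785 above the 75th. NR4A was most frequent in gained regions called at SP8 and not DN, 1.72% of 7623, and in those called at neither, 1.13% of 13742, against 0.2998% of those called at DN and not SP8. It rose with the height of gained peaks from 0.712% to 1.46%, against 0.139% and 0.270% for kept SP4 peaks.

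TCF7/LEF1, CTTTGA, was found in 6.82% of closed and 10.4% of gained regions (0.61, 19 of 19 autosomes) and rose from 8.83% to 14.1% with the height of gained peaks, against 6.48% to 7.75% in kept SP4 peaks. The GATA match, searched as AGATAA, went from 2.52% to 4.98% (0.99), NFAT, searched as GGAAAA, from 2.44% to 4.46% (0.87), SOX, searched as ACAAAG or as ACAATG, from 9.40% to 13.3% (0.50) and STAT, TTCNNNGAA, from 1.61% to 2.69% (0.74), each on 19 of 19 autosomes. Their shares 1000 bp from gained summits were 5.85%, 9.57%, 14.0% and 2.95%. Over all gained regions, then, these 4 were no more frequent at summits than nearby. In the 1785 gained peaks above the 75th percentile they were at 7.4%, 4.15%, 15.9% and 4.03%. The nearby windows were not split by height. TCF7/LEF1, at 7.29% nearby, and AP-1, TGANTCA, at 4.99% of gained summits and 2.95% nearby, were above their surroundings. PBX, TGATTGA, was at 0.426% of closed and 1.04% of gained regions, CTCF at 0.463% and 0.986% and FOXO, GTAAACA, at 1.13% and 1.47%. At 1000 bp from gained summits PBX was at 1.05%, CTCF at 0.0191% and FOXO at 1.41%. Over all gained regions PBX and FOXO were therefore near their surroundings, and above the 75th percentile they were at 1.5% and 2.5%. RUNX, TGTGGT, was frequent in both, at 12.8% and 14.0% (0.14), and ETS, CCGGAAG or AGGAAGT, was at 10.9% and 11.0%, both above the 7.62% and 2.49% found 1000 bp from gained summits. For KLF (GGGTGTG or GGGCGTG), ETS, MYB (CAACTG), PKNOX/MEIS (TGACAG) and MAF (TGCTGA) the intervals of the classes overlapped. Over the whole DP and SP4 lists, TCF7/LEF1 was at 7.02% and 8.20%, GATA at 2.76% and 3.55%, ROR at 1.05% and 0.650%, NR4A at 0.205% and 0.455% and NF-kB at 0.0859% and 0.163%.

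Base composition moved with the classes. The 100 bp windows were 54.9% ± 7.13 (SD over 27018 closed regions) GC and 49.5% ± 6.43 (SD over 35198 gained regions), and 50.4% and 55.5% in single pairs that were higher and lower. Windows 1000 bp away were 45.95% GC for closed and 44.1% for gained regions, so summits and surroundings were not compared at equal composition. Within windows of 45 to 55% GC, an alternative added after the data were seen, the E-box stayed at 34.1% of closed and 12.4% of gained regions (log2 ratio −1.46), ROR at −2.05, NR4A at 2.41 and NF-kB at 2.09. The ratio of TCF7/LEF1 shrank to 0.15 and that of GATA to 0.43. RUNX went to −0.064 and EGR to 0.10, both opposite in direction to their values over all windows but with intervals that overlapped. ETS and MYB also changed direction, to −0.18 and −0.087, ETS with intervals apart. FOXO, at 0.046, and IKZF, at −0.14, kept their direction with intervals that overlapped. KLF, whose intervals overlapped over all windows, had them apart here, at 3.53% of closed and 5.09% of gained regions (0.53). A motif match says only that the letters are there, and binding was not measured.

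**Figure D4:**
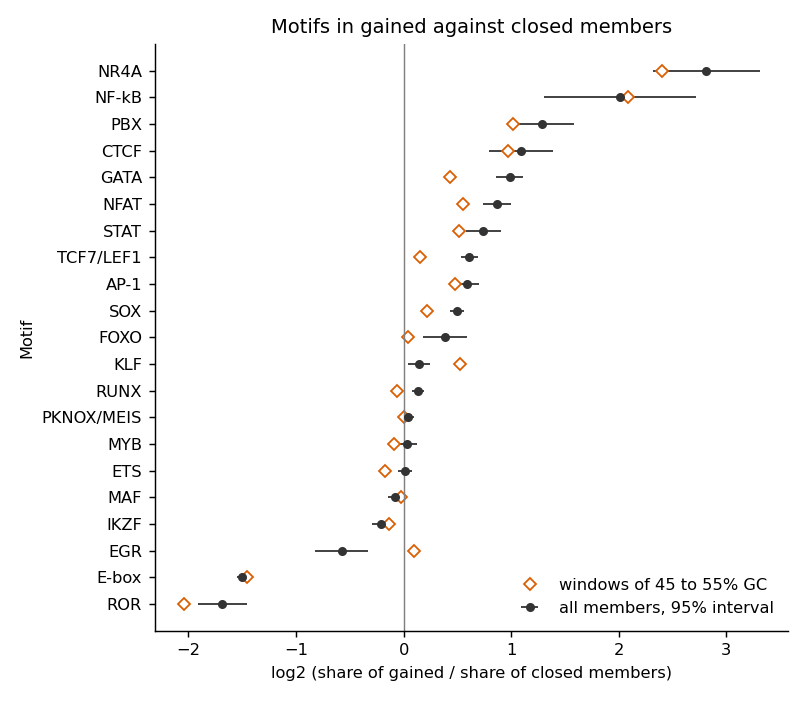
Log2 ratio of the share of gained to the share of closed regions with each of 21 motifs within 50 bp of the summit. Ratios are given over all windows and within windows of 45 to 55% GC. E-box and ROR lay at −1.50 and −1.68 over all windows and NR4A and NF-kB at 2.81 and 2.01. RUNX, EGR, ETS and MYB changed side at 45 to 55% GC, where only ETS of these had intervals apart.

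The TSS peaks of defining genes, which touched a TSS of the gene or the 200 bp upstream, were set against the labels of the sorted cells. Of 8 DP thymocyte markers, 8 had a TSS peak at DP and 6 at SP4, and their summed percentiles fell from 526 to 274. Of 8 CD4 SP markers, 7 had one at DP and 8 at SP4, with sums of 550 and 581. At DN and SP8 the sums were 584 and 344 for the DP markers and 556 and 505 for the CD4 SP markers. The DP marker sum was thus higher at DN than at DP, and these TSS peaks did not single out DP among the 4 stages. Dntt, the gene of terminal transferase, had no TSS peak at SP4. The TSS percentile of Ptcra, which encodes the pre-T cell receptor chain, went from 92.3 to 28.2, Rag1 from 88.9 to 64.4 and Rag2, the second recombinase subunit, from 91.2 to 57.6. Cd8a went from 56.1 at DP to 18.7 at SP4 and was at 70.7 at SP8, while Cd8b1 was at 87.7 and 88.2. The Cd4 TSS stood at 16.1 and 16.5. Zbtb7b had a TSS peak at SP4 alone among the 4 stages. In contrast, the TSSs of Ccr7, Klf2 and S1pr1, genes of homing and egress, were already at percentiles of 97.2, 93.1 and 72.2 at DP. Of other cell types, B cell markers had TSS peaks for 4 of 8 genes at both stages (sums 305 and 175, with Cd79a and Ms4a1 at none), myeloid markers for 1 of 8 at both (45.6 and 87.0) and hepatocyte controls for none. The part of such cells in the closed and gained regions was not tested.

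8 gene lists were then followed in windows from 20 kb before to 20 kb after each gene, and the count of closed peaks among DP peaks and of gained peaks among SP4 peaks was read against the 25.2% and 30.6% of the whole lists. The genes that support the DP stage had the highest closed share, 112 of 303 peaks (37.0%, 31.7 to 42.5), with 86 of 276 gained (31.2%). The maturation and egress list had the highest gained share, 113 of 253 (44.7%, 38.7 to 50.8), with 39 of 183 closed (21.3%). The CD4 lineage list followed with 139 of 331 gained (42.0%, 36.8 to 47.4) and 67 of 265 closed (25.3%). Genes of costimulation, NF-kB and regulatory T cells had the lowest closed share, 34 of 199 (17.1%, 12.5 to 22.9), and a gained share of 30.4%. Proliferation genes had the lowest gained share, 21 of 110 (19.1%, 12.8 to 27.4). The gained and closed shares were 32.1% and 23.5% for CD8 lineage genes, 28.1% and 20.2% for the TCR complex and proximal signalling, and 24.9% and 24.1% for genes of the TCR signal response. E-boxes were more frequent in the closed than in the gained regions of all 8 lists, with 39 of 112 against 7 of 86 near DP genes, 8 of 28 against 4 of 44 near CD8 lineage genes and 18 of 34 against 6 of 70 in the costimulation list. Over all closed and gained regions the shares were 35.2% and 12.4%.

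**Figure D5:**
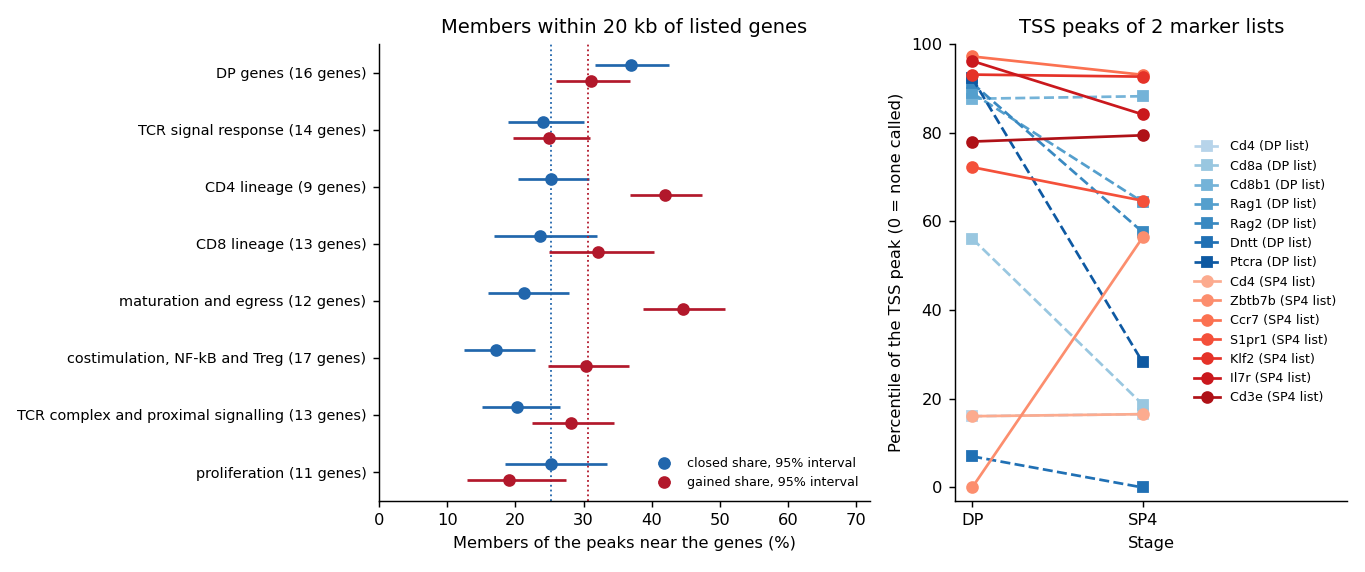
Left, closed peaks as a share (%) of DP peaks and gained peaks as a share (%) of SP4 peaks within 20 kb of the genes of 8 lists, with 95% Wilson intervals and the whole-list shares of 25.2% and 30.6% as lines. Right, percentile of the TSS peak at DP and SP4 for genes of the DP thymocyte and CD4 SP marker lists, where 0 means that no peak was called. DP genes had the highest closed share, 37.0%, and maturation and egress genes the highest gained share, 44.7%.

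Near the genes of the DP stage the closed share was above that of the whole list and the gained share was close to it. Themis, which encodes a regulator of T cell receptor signalling in thymocytes, had 23 of its 41 DP peaks closed and 12 of its 30 SP4 peaks gained. Arpp21, a gene highly expressed in DP cells, had 20 of 39 closed and 9 of 28 gained, and Tcf12, the gene of HEB, 18 of 40 and 13 of 35. Of these closed regions 3 of 23 at Themis, 1 of 20 at Arpp21 and 6 of 18 at Tcf12 were called at SP8, against 22.9% of all closed regions. The tallest lay upstream of Arpp21 at chr9:112249893-112250098, with a percentile of 75.04 at DP and 60.4 at DN. Ccr9, the gene of a chemokine receptor, had 6 of 28 closed and 8 of 28 gained, and Cd1d1 had no closed or gained region.

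A closed peak at the TSS of Dntt was low at DP, at percentile 7.02, and the same place stood at 48.6 at DN. Dntt lost 10 of 21 peaks and gained 2 of 14. Near Bcl6, also on the DP list, a pair at chr16:24008055-24008472 went from 17.7 at DP to 92.5 at SP4 with no DN or SP8 peak, and a peak at chr16:23997197-23997558 was gained at 87.9 and stood at 86.1 at SP8. These Bcl6 regions and the closed peak near Cxcr4 at chr1:128603052-128603374, at percentile 77.5 of the DP list, were singled out after their values were seen.

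Among CD4 lineage genes, Tox, a nuclear factor required for CD4 lineage development, had 34 of 59 SP4 peaks gained and 8 of 34 DP peaks closed. Its tallest gained peak was intronic at chr4:6975727-6976280, at percentile 86.3 at SP4 and 35.7 at SP8, with no DN peak. Lef1 had 32 of 60 gained and 9 of 39 closed, Bcl11b, a zinc finger factor of T cell identity, 20 of 53 and 16 of 49, and Satb1, a chromatin organiser, 18 of 55 and 8 of 45. Tcf7 went the other way, with 7 of 27 gained and 10 of 34 closed. Of the gained regions 16 of 34 at Tox, 18 of 32 at Lef1 and 15 of 20 at Bcl11b were also called at SP8, against 44.9% of all gained regions, so Tox was close to that share.

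Zbtb7b was named after its values were seen, as the gene of the CD4 lineage factor. It had 10 of 19 SP4 peaks gained and 2 of 10 DP peaks closed. Of the 10 gained regions 1 was called at SP8, against 44.9% of all gained regions. The gained peak over its TSS at chr3:89393592-89393846 was 6.77-fold enriched at SP4, at percentile 56.4, and was in none of the other 3 lists. A gained intron peak at chr3:89382026-89382391 stood at 58.1 with no SP8 peak. Both closed regions of Zbtb7b were called at DN and SP8, against 17.3% of all closed regions. The taller was an exon peak at chr3:89379698-89380007 with a DP percentile of 78.4. The 100 bp at the centre of the TSS peak matched none of the 21 motifs and are given here as the promoter called at SP4 alone.
Zbtb7b TSS, gained, chr3:89393698-89393797: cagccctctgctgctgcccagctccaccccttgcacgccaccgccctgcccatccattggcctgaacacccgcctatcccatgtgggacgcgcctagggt

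Cd4 had 3 of 14 DP peaks closed and 6 of 17 SP4 peaks gained. The tallest of these was closed, an exon peak at chr6:124879359-124879931 that was 18.03-fold enriched at DP, at percentile 92.1, stood at 92.96 at DN and was called at neither SP4 nor SP8. Gata3, whose product promotes the CD4 lineage, had 8 of 25 gained and 4 of 20 closed, all low, the tallest gained at percentile 37.9. The Cd4, Gata3 and Nr4a3 regions were picked out after their values were seen. Near Nr4a3, the gene of an NR4A factor, a closed intron peak at chr4:48073364-48073730 stood at 85.8 at DP and was called at no other stage.

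The maturation and egress list was led by Bcl2, the survival factor, with 29 of 49 SP4 peaks gained and 4 of 25 DP peaks closed, and by Foxo1, a factor that drives homing genes, with 16 of 38 and 6 of 31. Of the gained regions 9 of 29 at Bcl2 and 12 of 16 at Foxo1 were called at SP8, the first below and the second above the 44.9% of all gained regions. Tgfbr2, a TGF-β receptor chain, had 10 of 33 gained and 8 of 30 closed, with the tallest gained intron peak at chr9:116091088-116091445, at percentile 86.9 at SP4 and 82.2 at SP8. Il6ra had 10 of 19 gained and 4 of 13 closed, and Ccr7 8 of 20 and 5 of 18. Il7r, the gene of the IL-7 receptor chain, and S1pr1, the egress receptor, were singled out after their values were seen because most of their SP4 peaks were gained. Il7r had 10 of 12 gained and 0 of 3 closed, and S1pr1 10 of 14 and 0 of 4. All 10 gained regions of S1pr1 were called at SP8, the tallest at chr3:115729133-115729924 with percentiles of 72.8 at SP4 and 81.1 at SP8. The tallest of Il7r was at chr15:9535131-9535536, at 85.6 at SP4, 74.0 at SP8 and 44.7 at DN. Their TSS peaks did not rise with these regions, with Il7r at 96.2 at DP and 84.1 at SP4 and S1pr1 at 72.2 and 64.7. Ms4a4b, a marker of mature T cells, gained a TSS peak at percentile 78.1, which stood at 76.9 at SP8.

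The TCR signal response list had closed and gained shares close to or below those of the whole lists. Nfatc1 had 13 of 38 DP peaks closed and 4 of 30 SP4 peaks gained, and Nfatc2 12 of 39 and 1 of 29. Cd6, whose product tunes receptor signals, had 2 of 15 closed and 13 of 27 gained, and its neighbour Cd5 3 of 14 and 8 of 18. The windows of Cd5 and Cd6 lie on the same stretch of chromosome 19 and can share peaks. Nr4a3 had 3 closed and 5 gained regions. Of the gained regions 10 of 13 at Cd6 and 7 of 8 at Cd5 were called at SP8, against 44.9% of all gained regions.

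Among genes of costimulation, NF-kB and regulatory T cells, Nfkb1, the gene of p105 and p50, had 12 of 34 SP4 peaks gained and 5 of 27 DP peaks closed. Ikzf2, which encodes Helios, had 8 of 23 and 4 of 23, with a gained intron peak at chr1:69544284-69544571 at percentile 80.4 at SP4 and 92.8 at SP8. Cd28 had 8 of 16 gained and 1 of 9 closed and Il2ra, the IL-2 receptor alpha chain, 7 of 19 and 2 of 14. Ctla4 had 6 gained and 2 closed regions. Traf1 and Nfkb2, named after their values were seen, had no gained region among 14 and 10 SP4 peaks and 4 of 19 and 2 of 14 closed. At Tnfrsf4, the gene of the costimulatory receptor OX40, the gained TSS peak at chr4:156013497-156014033 was 15.6-fold enriched, at percentile 86.3 at SP4 and 30.2 at SP8, and absent at DN. A nearby kept pair at chr4:156004043-156004638 rose from 53.4 to 97.0. Tnfrsf18, the gene of GITR, had its TSS peak at 71.3 at DP and 4.82 at SP4.

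The gained share of CD8 lineage genes was close to that of the whole list. Runx3 had 7 of 23 SP4 peaks gained and 5 of 20 DP peaks closed, and its tallest gained peak at chr4:135108759-135109154 stood at 86.2 at SP4 and 86.7 at SP8. Cd8b1 had 8 of 22 gained and 3 of 18 closed. Cd8a had 6 of 17 closed and 3 of 14 gained, the tallest gained an exon peak at chr6:71376596-71377406 at percentile 75.3 at SP4 and 11.3 at SP8. Klrd1 had 5 of 7 gained and Eomes 5 of 10. The TCR complex list was led by Ptprc, the gene of CD45, with 15 of 38 gained and 7 of 31 closed, Cd247, the CD3 zeta chain, with 10 of 43 and 4 of 36, and Cd2 with 6 of 16 and 6 of 16. Trac, the constant region of the T cell receptor alpha chain, had 8 of 18 gained and 0 of 10 closed. All 8 were called at SP8, against 44.9% of all gained regions. Among proliferation genes Ccnd3 had 8 of 33 closed and 8 of 34 gained, E2f2 5 of 18 and 1 of 12, Mki67 5 of 13 and 1 of 8 and Top2a 2 of 11 and 4 of 13. Ccna2 had no closed or gained region.

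Over all 20780 protein-coding genes, 13213 had a gained and 12381 a closed region in the same windows, 9802 had both and 4988 neither. The genes with the most gained regions were long. After the predicted model Gm20388, which spans 4434882 bp, with 133 of 643, and Fgfr2, annotated over 2960900 bp, with 74 of 210, came Inpp4b, a phosphoinositide phosphatase gene, with 70 of 95 (73.7%), Foxp1, a factor of T cell quiescence, with 68 of 160, and Bach2, a repressor of effector programmes, with 64 of 105 (61.0%). Inpp4b and Bach2 had 2 and 3 closed regions. Sox5, Maml2, Gm20696, Asap1 and Tox followed with 39 to 34 gained regions each. The most closed regions, after Gm20388 with 219 of 726, were near Gse1, 40 of 121, Arid1b, a gene of a chromatin remodelling complex, 38 of 109, Fgfr2, 32 of 168, Itpr2, an IP3 receptor gene, 29 of 63, Foxn3, 28 of 72, Ssbp2, 27 of 59, Mad1l1, 26 of 76, Rptor, a subunit of mTORC1, 26 of 69, and Mgat5, a glycosyltransferase gene, 25 of 71. Gse1 lies inside Gm20388 and Gm20696 overlaps Foxp1, so their counts share peaks. In the gained ranking Gm20388 (20.7%) and Gm20696 (30.1%) were below the 30.6% of the whole list. In the closed ranking Fgfr2 (19.05%) was below its 25.2%. The other genes of each ranking were above these shares.

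The individual peaks with the highest −log10 q repeated the pattern of the other stages. All 10 closed peaks were called at DN and 3 at SP8, against 58.9% and 22.9% of all closed regions. All 10 gained peaks were called at SP8 and 5 at DN, against 44.9% and 39.3% of all gained regions. The closed peak near Nkx2-4 at chr2:147127243-147127798 was 37.5-fold enriched at DP and stood at percentile 99.9 at DP, 99.5 at DN and 31.0 at SP8. The closed peak in Atp10a at chr7:58754915-58755505 was 21.4-fold enriched, at 95.5 at DP and 76.6 at DN. Near Itpr1, the closed peak at chr6:108206642-108207384 was 27.2-fold enriched, with 99.0 at DN and 33.0 at SP8. Of the gained peaks, that near Tnpo1 at chr13:98937038-98937467 was 37.5-fold enriched at SP4, stood at 99.6 at SP8 and was absent at DN, and that in Elavl1 at chr8:4305658-4306149 was 35.4-fold enriched with 95.2 at SP8 and 55.5 at DN. A gained intron peak of Cblb, the gene of a ubiquitin ligase that restrains T cell activation, at chr16:52147336-52147859 stood at 97.0 at SP4 and 88.6 at SP8. The gained peak near Btla, an inhibitory receptor gene, at chr16:45261336-45261953 stood at 99.0, 97.3 and 65.8 at SP4, SP8 and DN. An intron peak of Ets1 at chr9:32731638-32732256 stood at 83.3 at SP4 and 43.5 at SP8.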

How the data were processed

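ATAC-seq libraries of sorted thymocytes from 4 mice per stage were mapped to mm10 with BWA, down-sampled to their median depth and pooled by stage by the authors, and peaks were called with MACS2 at an FDR of 5% (tool versions are not given in the sources used here). The deposited peak lists give each peak's position, summit, fold enrichment over the local background, which is a ratio, and −log10 q-value. Read numbers were not analysed here. Fold enrichment was ranked within each list as a percentile, which hides any change shared by a whole list. The authors' p-value column was not used.

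Peaks were compared with Python 3.11.15, numpy 2.4.6, pandas 2.3.3 and pysam 0.24.0, with scripts tested on simulated data. A shared base made a pair. Genes, TSSs and sequence came from GRCm38/mm10. Of each gene list, the 5 genes with the most closed and gained regions and those with none were named, as were the 10 closed, gained and most changed kept peaks and the 10 genes with the most regions, except for some that are not reported here. The regions, gene lists and motifs were chosen with earlier results of these data known, and the lists were written for this comparison. No hypothesis test was run, since pooled peaks have no replicate spread.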

Additional observations from a re-analysis of the deposited data

How the results depend on the processing

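Closed peaks numbered 23266 to 29345 and gained peaks 29872 to 36007 over all definitions of overlap, stringency and list length tried, and all 15 such counts lay within 1.5 times the reported ones. A change of 40 percentile points left 4990 higher and 4905 lower pairs. Promoters of 1000 bp raised the promoter share to 14.0% of closed and 9.94% of gained regions, and counting summits only lowered it to 4.38% and 2.56%, with kept peaks at 27.1% and 27.5%, and 13.2% and 13.9%. With q-values of at most 0.001, 60.1% of closed regions were called at DN and 45.6% of gained regions at SP8. Of 84 motif ratios, 56 stayed within the interval of the reported value, 26 moved and 2 reversed in sign, RUNX to −0.064 and EGR to 0.10 at 45 to 55% GC. The closed and gained intervals of both overlapped there. ETS and MYB, whose intervals overlapped as reported, also changed sign there, ETS to −0.18 with intervals apart. FOXO and IKZF, like RUNX and EGR, no longer had intervals apart. KLF, also overlapping as reported, moved to 0.53 there with intervals apart. Over the alternatives 14 to 17 motifs had intervals apart. Of 48 gene list shares 47 were unchanged within their intervals, and the closed share of the TCR signal response list was 31.1% within gene bodies alone. No paired analysis was possible because peaks were called on reads pooled over the 4 mice, whose numbers the stages share, and leaving out a replicate was not possible for the same reason. Without replicates, whether a peak near the calling limit would be called again in other mice was not tested.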

Other observations

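CTCF, searched by its consensus and known for anchoring chromatin loops, was distributed unevenly among the gained regions. It was present in 2.38% of the gained regions also called at both DN and SP8 and in 0.189% of those called at neither. Over all gained regions the share was 0.986%, against 2.04% of kept SP4 peaks and 1.72% of the whole SP4 list. In the tallest gained peaks, above the 75th percentile of the SP4 list, it was found in 0.0560% of 1785, against 1.61% of kept SP4 peaks of that height. Windows 1000 bp from gained summits held it in 0.0191% of cases. NF-kB matches were found in 0.485% of gained regions called at SP8 and not DN and 0.0705% of those called at DN and not SP8.

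Closed and gained windows lay mostly within annotated repeats in 8.56% and 9.42% of cases, against 5.15% and 5.04% of kept DP and SP4 peaks. A CpG was present in 69.9% of closed and 66.7% of gained windows, and in 79.1% and 79.6% of kept windows.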
